A study of Mus musculus with 9 samples.

Results

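The tumour necrosis factor (TNF) ligand and receptor superfamily was followed in tissue around a mouse brain infarct. Its members were taken by gene name, as every gene of the deposited table whose symbol begins with Tnfsf or Tnfrsf, together with Tnf, Lta, Ltb, Ltbr, Cd40 and Cd27. This gave 39 of the 55401 genes in the table, of which 14 are ligands, 15 receptors without a death domain, 4 death domain receptors, 4 receptors grouped as decoys and 2 a readthrough and an antisense transcript. RNA was sequenced from 9 libraries at day 28, with 3 libraries in each of 3 groups of wild-type mice. The Pushen group had photothrombosis, in which illumination of the cortex clots vessels filled with a light-sensitive dye, and was dosed with the drug Pushen by gavage from the day after surgery. The PT group had photothrombosis and received ultrapure water, and the sham group had a sham operation and the same water. Doses in the Pushen labels were 391, 392 and 393 mg/kg, 1 per library, and were treated as 1 group. The sources used here state no age, sex or strain. They also leave unsaid whether each library is its own animal, so the p-values reflect the spread among libraries, which may be technical.

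TNF superfamily ligands are mostly membrane proteins that act as trimers and can be cut from the cell surface, and their receptors carry cysteine-rich domains outside the cell. Receptors with an intracellular death domain can assemble caspase-activating complexes, while most other members bind TRAF adaptors and switch on NF-kappaB and MAP kinases; decoy receptors bind ligand without passing on a full signal. In injured brain, microglia, infiltrating leukocytes and astrocytes are the known sources of many of the ligands, and the receptors for Tnf are studied for both damaging and repair-related signalling after stroke.

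Total counts lay between 57437342 and 73499628 in the Pushen libraries, between 64482908 and 75100133 in the PT libraries and between 66775462 and 72646409 in the sham libraries. Levels are FPKM, the number of fragments scaled to transcript length and library size, as deposited by the authors. The tissue is labelled brain while the extraction protocol speaks of retinas. The 8 photoreceptor markers summed to between 0.45 and 0.57 FPKM in Pushen, 0.55 and 0.73 in PT and 0.64 and 0.70 in sham, against 690 to 840, 558 to 727 and 911 to 1015 for 6 neuronal markers. Some libraries stood apart from others of their group. PT library 1 had 405 FPKM of 6 striatal neuron markers, against 55.7 and 98.4 in the other PT libraries and 45.3 to 56.6 in sham. Choroid plexus markers reached 620 FPKM in Pushen library 2, 150 in Pushen library 3 and 540 in PT library 1, against 2.90 to 18.3 in sham. Pushen library 3 had 118 FPKM of 8 monocyte and macrophage markers, against 531 and 663 in the other Pushen libraries, 508 to 615 in PT and 4.25 to 6.90 in sham. Only a small part of that sum came from Mrc1, Ccr2, Cd163 and Lyve1. In Pushen library 3 Mrc1 (1.16 FPKM) and Ccr2 (0.16) were below the other Pushen libraries. Cd163 (0.46, against 0.51 and 0.46) and Lyve1 (0.45, against 0.44 and 0.57) differed little. Some results are also given without the libraries that stood apart.

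Promoter sequence is shown for 4 members that were higher in PT and whose start regions differ in known motifs. RefSeq promoter windows on build GRCm38.p6, each 250 bases before to 50 bases after a start site, were found for 30 of the 39 members (34 windows). Capitals mark every match, on either strand, to the kappa B consensus bound by NF-kappaB, to the interferon response core GAAANNGAAA, to the AP-1 site TGANTCA or to the TATA element TATAAA. The lines give the Tnf window (chr17:35201958-35202257, minus strand), the Ltb window (chr17:35194257-35194556, plus strand), the Tnfrsf1b window (chr4:145246821-145247120, minus strand) and the Tnfrsf14 window (chr4:154928028-154928327, minus strand), each read 5′ to 3′ along its gene.
Tnf: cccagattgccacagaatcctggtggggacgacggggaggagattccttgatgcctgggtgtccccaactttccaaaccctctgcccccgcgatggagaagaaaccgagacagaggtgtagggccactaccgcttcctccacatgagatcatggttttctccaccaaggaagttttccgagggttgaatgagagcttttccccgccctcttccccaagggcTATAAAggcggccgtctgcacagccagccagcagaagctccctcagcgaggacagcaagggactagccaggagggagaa
Ltb: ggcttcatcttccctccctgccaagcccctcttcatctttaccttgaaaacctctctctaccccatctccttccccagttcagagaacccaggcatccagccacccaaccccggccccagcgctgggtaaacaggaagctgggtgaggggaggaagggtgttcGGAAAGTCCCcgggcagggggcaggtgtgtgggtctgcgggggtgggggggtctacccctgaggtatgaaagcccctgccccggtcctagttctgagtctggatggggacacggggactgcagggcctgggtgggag
Tnfrsf1b: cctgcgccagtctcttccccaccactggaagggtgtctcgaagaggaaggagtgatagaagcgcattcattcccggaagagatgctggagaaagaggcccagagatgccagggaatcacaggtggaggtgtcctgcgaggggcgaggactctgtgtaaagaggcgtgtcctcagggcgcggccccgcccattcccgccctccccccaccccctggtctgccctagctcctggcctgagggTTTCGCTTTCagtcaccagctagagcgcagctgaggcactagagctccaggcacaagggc
Tnfrsf14: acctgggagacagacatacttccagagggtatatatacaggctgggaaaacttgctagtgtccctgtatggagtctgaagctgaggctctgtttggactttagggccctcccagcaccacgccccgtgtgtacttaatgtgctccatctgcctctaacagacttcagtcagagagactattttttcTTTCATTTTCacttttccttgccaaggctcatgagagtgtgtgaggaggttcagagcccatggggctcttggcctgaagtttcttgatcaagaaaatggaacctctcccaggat

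In the Tnf window the TATA match began at position -29 from the start site, and in the Ltb window the kappa B match GGGACTTTCC lay on the opposite strand with its first printed base at -87. The interferon response core was on the opposite strand in both receptor windows, at -10 in Tnfrsf1b and at -64 in Tnfrsf14. Of the 34 member windows, 4 (11.8%) held the kappa B consensus, 4 (11.8%) the interferon core, 6 (17.6%) the AP-1 site and 6 (17.6%) the TATA element. Of all 32851 RefSeq promoters of this length, 8.46% held the kappa B consensus, 3.44% the interferon core, 7.81% the AP-1 site and 13.6% the TATA element. These matches describe letters in a window and were not tied to binding.

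The superfamily's genes lie close together in places. On chromosome 17 Ltb, Tnf and Lta fall within chr17:35194439-35205351, beside each other in the major histocompatibility region, and on chromosome 6 Cd27, Ltbr and Tnfrsf1a fall within chr6:125232622-125361874. In all, 23 members formed 9 groups of neighbours less than 100000 bases apart, and chromosomes 4 and 17 held 16 of the 39. Exons overlapped those of another gene in 9 members. On chromosome 11 the readthrough transcript Tnfsfm13 shared 78.1% of its exon bases, Tnfsf12 48.3% and Tnfsf13 60.0%, so how the authors' counting divided reads among these genes is uncertain.

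**Figure D1:**
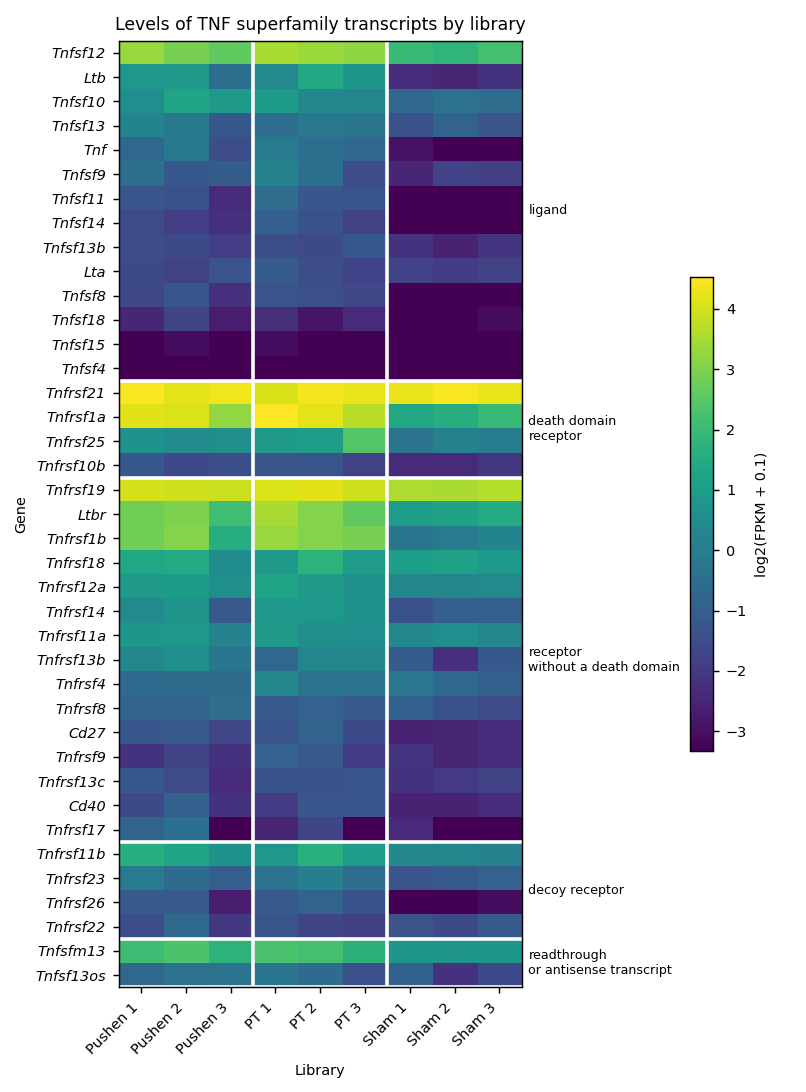
Level of each of the 39 superfamily genes in each library, as log2(FPKM + 0.1), with Pushen, PT and sham libraries from left to right and genes grouped by role. Tnfrsf21 and Tnfrsf19 were bright in every library, while Tnfsf8, Tnfsf11 and Tnfsf14 were listed at 0 in the 3 sham libraries and present in all 6 infarct libraries.

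In sham tissue 2 receptors made up most of the superfamily's RNA. Tnfrsf21, the death receptor known for axon pruning, averaged 20.2 ± 1.29 FPKM (SD, n = 3) and Tnfrsf19, an orphan receptor that takes part in Nogo receptor signalling, 11.9 ± 0.589 FPKM. Their libraries did not overlap with each other or with those of the next gene, Tnfsf12 at 3.91 ± 0.573 FPKM, whose range met that of Tnfrsf1a at 3.05 ± 0.67 FPKM. Around the infarct the order was different. In PT, Tnfrsf21 (19.0 ± 2.28 FPKM), Tnfrsf1a (18.0 ± 5.05 FPKM) and Tnfrsf19 (16.7 ± 1.41 FPKM) had overlapping libraries. In Pushen, Tnfrsf21 averaged 20.1 ± 1.73 FPKM, Tnfrsf19 15.2 ± 0.429 FPKM and Tnfrsf1a 14.7 ± 4.57 FPKM, of which Tnfrsf19 and Tnfrsf1a overlapped.

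Summed over the 39 genes, the level was 96.0 ± 17.3 FPKM in Pushen, 110 ± 11.3 FPKM in PT and 54.6 ± 1.89 FPKM in sham (SD, n = 3 each). The Tnf receptors Tnfrsf1a and Tnfrsf1b together took 21.2% of that sum in Pushen (range 16.2% to 24.3%), 23.9% in PT (20.8% to 27.7%) and 7.16% in sham (6.15% to 8.63%). Tnfrsf21 and Tnfrsf19 took 37.6% in Pushen, 32.6% in PT and 58.7% in sham. Both shares thus lay outside the sham range in every infarct library. In bulk tissue, more cells of a type and more RNA per cell cannot be told apart.

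**Figure D2:**
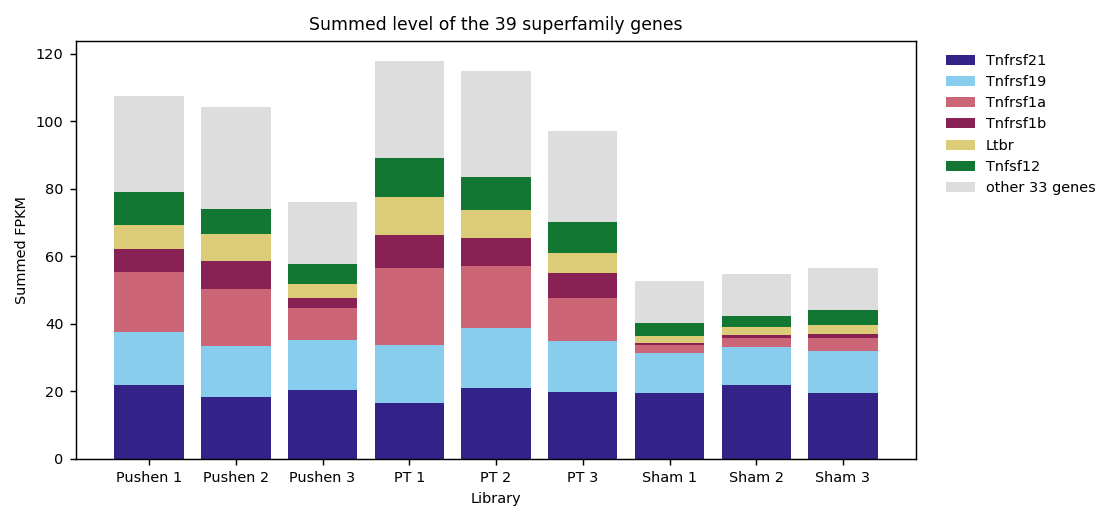
Summed FPKM of the 39 superfamily genes in each library, split into 6 abundant genes and the other 33, with Pushen, PT and sham libraries from left to right. The segments of Tnfrsf1a and Tnfrsf1b are wide in the infarct libraries and thin in sham, while that of Tnfrsf21 lay between 16.45 and 21.8 FPKM in all 9.

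The comparison of PT with sham asks which members differed around the infarct at day 28. Receptors for Tnf and lymphotoxin, the ligands Ltb, Tnfsf10 and Tnfsf12, and the receptors Tnfrsf14 and Tnfrsf25 were higher in PT, and none of the tested members was lower. Of 19 members with a mean of at least 0.5 FPKM, 13 were called higher at a Benjamini-Hochberg adjusted p under 0.05 in edgeR's quasi-likelihood test and 0 lower, and 0 were lower at an unadjusted p under 0.05 in edgeR, DESeq2 or limma. Of all 16740 genes tested, 19.1% were called higher and 11.8% lower. A member can pass the filter through its level around the infarct alone: of the 14 tested members whose sham mean also reached 0.5 FPKM, 10 were called. The share called among all genes with such a sham mean is not given here. Without a filter, 21 of the 38 members with a count were called higher, against 9.18% of 35527 genes. The median log2 fold change was 1.14 over the 19 members and -0.0029 over all genes tested. PT and sham libraries were fully apart, with PT higher, in 28 of the 38 members on the scaled counts, against 17.1% of all genes with a count.

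Tnf itself was nearly undetected in sham. It had 30 to 112 reads per Pushen library, 64 to 112 per PT library and 4, 0 and 0 reads in sham, which the table gives as 0.52, 0.81 and 0.26 FPKM in Pushen, 0.84, 0.61 and 0.53 in PT and 0.03, 0 and 0 in sham. All 6 infarct libraries lay above the sham libraries. Tnf missed the filter, and without one the fitted log2 fold change was 5.78 ± 0.89 (SE) in PT against sham, with an adjusted p of 0.00236 in edgeR's quasi-likelihood test; with so few sham reads its size depends on the prior count.

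The lymphotoxin genes beside Tnf behaved unequally. Ltb, which forms a membrane complex with Lta that binds Ltbr, had 1.73, 1.76 and 0.61 FPKM in Pushen, 1.19, 2.54 and 1.67 in PT and 0.10, 0.08 and 0.12 in sham. Every infarct library exceeded every sham library. Ltb rose by a log2 fold change of 3.97 ± 0.49 in PT against sham (edgeR adjusted p = 0.000764), the highest fitted value of the 19. It passed the filter through its infarct level, which favours a high rank. Lta had 0.24, 0.19 and 0.30 FPKM in Pushen, 0.38, 0.26 and 0.20 in PT and 0.20, 0.16 and 0.19 in sham. Its PT libraries met the sham range, and without a filter its log2 fold change was 0.53 ± 0.40 (edgeR adjusted p = 0.429). The difference between the changes of Ltb and Lta was not tested.

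Among the other ligands, Tnfsf10 (TRAIL), which triggers death receptors, had 1.34, 2.31 and 1.75 FPKM in Pushen, 1.83, 1.13 and 1.10 in PT and 0.50, 0.68 and 0.60 in sham. Tnfsf12 (TWEAK), the ligand of Tnfrsf12a, had 9.91, 7.51 and 5.99 FPKM in Pushen, 11.49, 9.96 and 9.14 in PT and 3.80, 3.40 and 4.53 in sham. Tnfsfm13, which joins Tnfsf12 to Tnfsf13, had 4.12, 4.87 and 3.28 FPKM in Pushen, 4.73, 4.55 and 3.17 in PT and 1.68, 1.58 and 1.68 in sham. In all of these the infarct libraries lay wholly above sham. The log2 fold changes in PT against sham were 1.14 ± 0.26 for Tnfsf10 (edgeR adjusted p = 0.0112), 1.32 ± 0.19 for Tnfsf12 (0.00152) and 1.27 ± 0.19 for Tnfsfm13 (0.00166). Because Tnfsfm13 and Tnfsf12 share exon bases, these last values are not separate measurements.

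Several ligands had no read in sham. Tnfsf8, the ligand of Tnfrsf8 on lymphocytes, had 31 to 102 reads in Pushen libraries and 62 to 94 in PT libraries. Its depth-scaled level was 20.8-fold above a floor of 3 reads per sham library in Pushen and 25.7-fold above it in PT. Tnfsf11 (RANKL), known from osteoclast formation, had 15 to 54 reads in Pushen and 51 to 110 in PT, 13.2-fold and 23.7-fold above that floor. Tnfsf14 (LIGHT), which binds Ltbr and Tnfrsf14, had 16 to 31 reads in Pushen and 26 to 61 in PT, 8.50-fold and 13.9-fold above it. This floor lies below the count of 4 that is in excess in every library, so these folds may not be lower bounds. Without a filter these ligands were called higher in PT, as were Tnfsf9 and Tnfsf13b. The calls of Tnfsf9 and Tnfsf13b were lost when PT library 1 and Pushen library 2 were both left out. That of Tnfsf9 was also lost without Pushen library 3. Tnfsf15 had reads only in Pushen library 2 and PT library 1, 9 and 8 in number. Tnfsf18 had 55 reads in Pushen, 42 in PT and 4 in sham over the 3 libraries of each group and was not called, and Tnfsf4 had no read in any library.

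Both receptors for Tnf were much higher around the infarct. Tnfrsf1a, the death domain receptor found on most cells (chr6:125349362-125361874), had 17.72, 17.03 and 9.48 FPKM in Pushen, 22.86, 18.46 and 12.78 in PT and 2.51, 2.84 and 3.80 in sham. Tnfrsf1b, the receptor without a death domain that is common on microglia and leukocytes (chr4:145213463-145246870), had 7.06, 8.31 and 2.88 FPKM in Pushen, 9.76, 8.24 and 7.40 in PT and 0.73, 0.82 and 1.07 in sham. The infarct libraries of both genes lay above all sham libraries. In PT against sham the log2 fold change was 2.50 ± 0.29 for Tnfrsf1a (edgeR adjusted p = 0.00064) and 3.22 ± 0.36 for Tnfrsf1b (0.000579), and both calls held in all 9 fits that each left out 1 library.

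Ltbr, the receptor of membrane lymphotoxin and Tnfsf14, had 6.92, 7.76 and 4.21 FPKM in Pushen, 11.27, 8.27 and 6.03 in PT and 1.97, 2.21 and 2.76 in sham. Tnfrsf14 (HVEM), which binds Tnfsf14 and the inhibitory receptor Btla, had 1.23, 1.57 and 0.36 FPKM in Pushen, 1.72, 1.72 and 1.54 in PT and 0.29, 0.43 and 0.42 in sham. Its PT libraries were tightly grouped above sham, while Pushen library 3 lay within the sham range. The log2 fold change in PT against sham was 1.82 ± 0.28 for Ltbr (edgeR adjusted p = 0.00192) and 2.03 ± 0.45 for Tnfrsf14 (0.00966).

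Tnfrsf25 (DR3), the death domain receptor of Tnfsf15 on T cells, was set apart by a single library. It had 1.53, 1.27 and 1.37 FPKM in Pushen, 1.76, 1.98 and 5.26 in PT and 0.71, 0.99 and 0.88 in sham. The groups did not overlap, with PT highest and sham lowest, and PT library 3 stood far above the rest. Both neighbouring genes also had their highest level of the 9 libraries there. Espn had 0.63 to 0.82 FPKM in Pushen, 0.59, 0.66 and 1.19 in PT and 0.78 to 1.03 in sham, and Plekhg5 had 17.89 to 22.42 FPKM in Pushen, 19.18, 18.92 and 23.92 in PT and 17.95 to 22.31 in sham. Their part in the level of Tnfrsf25 was not tested. The log2 fold change in PT against sham was 1.74 ± 0.40 (edgeR adjusted p = 0.0115) and 1.04 without PT library 3, and the adjusted p was 0.0503 without sham library 1.

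Smaller differences were found in other receptors. Tnfrsf19 had 15.64, 14.99 and 14.83 FPKM in Pushen, 17.10, 17.78 and 15.07 in PT and 11.78, 11.31 and 12.48 in sham, with no overlap between infarct and sham, and rose by 0.43 ± 0.08 on the log2 scale in PT against sham (edgeR adjusted p = 0.00406). Tnfrsf12a (Fn14), the receptor of Tnfsf12 that is induced after injury, had 1.80, 1.82 and 1.39 FPKM in Pushen, 2.29, 1.78 and 1.48 in PT and 1.13, 1.12 and 1.18 in sham. It rose by 0.63 ± 0.19 (edgeR adjusted p = 0.0385), and the call was lost when any sham library, PT library 1, PT library 2, Pushen library 1 or Pushen library 2 was omitted (edgeR adjusted p between 0.0533 and 0.117), with no filter (0.0806), with PT and sham fitted alone (0.0611) and with a replicate block (0.0587). Tnfrsf11b (osteoprotegerin), a soluble decoy for Tnfsf11 and Tnfsf10, had 3.01, 2.31 and 1.51 FPKM in Pushen, 1.72, 3.05 and 1.93 in PT and 1.15, 1.11 and 0.99 in sham. Its log2 fold change in PT against sham was 0.98 ± 0.28 (edgeR adjusted p = 0.028), and the call was lost without any of the sham libraries or PT library 2 (0.0674 to 0.0900). Tnfrsf13b (TACI), a receptor of Tnfsf13 and Tnfsf13b on B cells, had 1.14, 1.41 and 0.73 FPKM in Pushen, 0.50, 1.09 and 1.08 in PT and 0.40, 0.11 and 0.35 in sham. It rose by 1.56 ± 0.50 (edgeR adjusted p = 0.0428), a call lost when any sham library, PT library 2, PT library 3, Pushen library 1 or Pushen library 2 was omitted (0.0535 to 0.109), with no filter (0.0648), with PT and sham fitted alone (0.0668) and with a replicate block (0.0909).

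The tested members that did not pass in PT against sham were Tnfrsf21 (log2 fold change -0.14 ± 0.10, edgeR adjusted p = 0.323), Tnfrsf23, Tnfsf13, Tnfrsf4, Tnfrsf11a and Tnfrsf18. Tnfrsf21 was the only one of the 19 with a value below 0, at 21.80, 18.34 and 20.27 FPKM in Pushen, 16.45, 20.86 and 19.63 in PT and 19.36, 21.66 and 19.51 in sham, so that all groups overlapped. Tnfrsf23, a mouse decoy for Tnfsf10, stood at the edge of the threshold, with a log2 fold change of 0.89 ± 0.30 (edgeR adjusted p = 0.0502). Of receptors under the filter, Cd27, Tnfrsf10b, Tnfrsf9 and the decoy Tnfrsf26 were called higher when no filter was used. The calls of Tnfrsf10b and Tnfrsf9 were lost when PT library 1 and Pushen library 2 were both left out. Cd40 (edgeR adjusted p = 0.0627), Tnfrsf8, Tnfrsf13c, Tnfrsf17 and Tnfrsf22 were not called. With no filter Cd40 was called without Pushen library 3, and also without both PT library 1 and Pushen library 2.

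**Figure D3:**
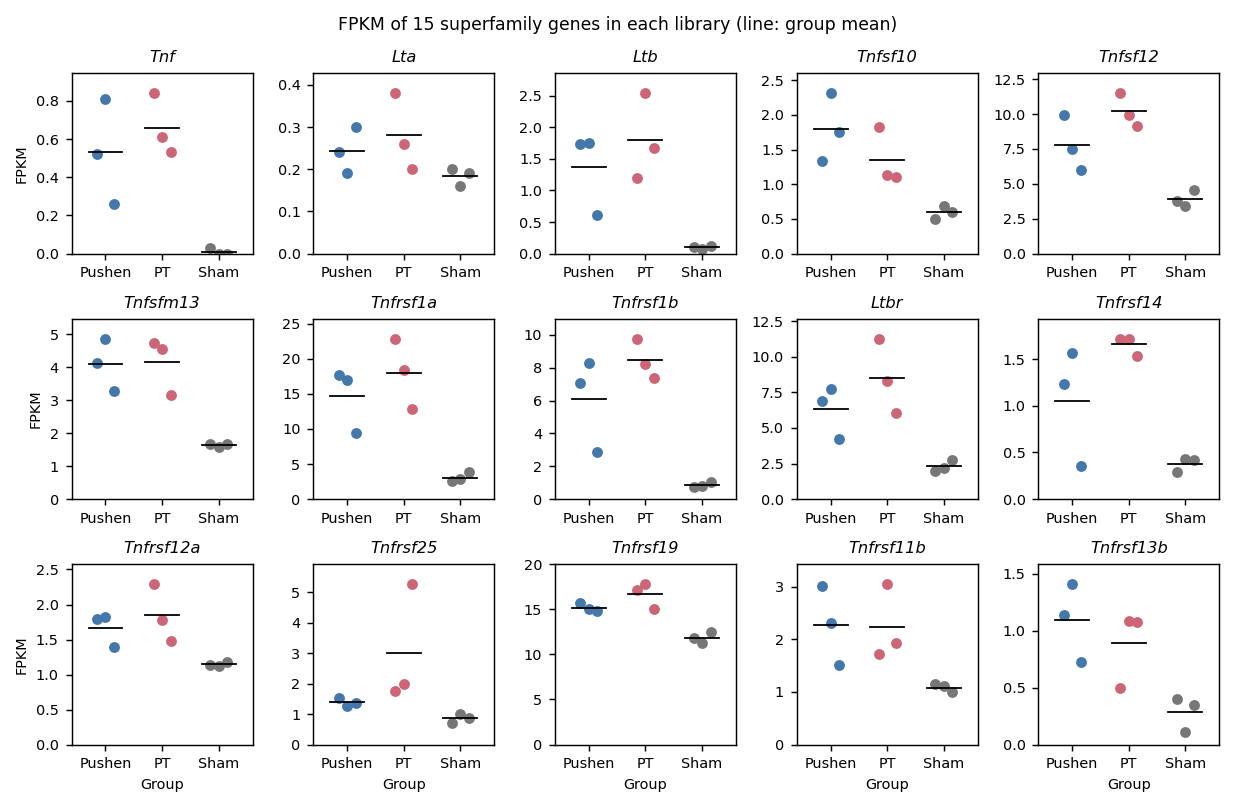
FPKM of 15 superfamily genes in each library, with Pushen, PT and sham from left to right, points for libraries and lines for group means; each vertical axis starts at 0. Tnf, Ltb, Tnfrsf1a and Tnfrsf1b were low in sham and high in both infarct groups, Lta overlapped between groups, and PT library 3 stood at 5.26 FPKM for Tnfrsf25.

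Ligands and their receptors could be set side by side. For Tnf with its receptors, for Tnfsf12 with Tnfrsf12a, and for Tnfsf14 with Ltbr and Tnfrsf14, ligand and receptors were called higher in PT, Tnf and Tnfsf14 in the fit without a filter and Tnfrsf12a in the fit with it alone. The call of Tnfrsf12a held in only 2 of the 9 fits that each left out 1 library. For Tnfsf10 the ligand and its death receptor Tnfrsf10b were higher. Tnfrsf10b had 0.35, 0.23 and 0.27 FPKM in Pushen, 0.32, 0.31 and 0.19 in PT and 0.09, 0.09 and 0.14 in sham. Its call, made with no filter, was lost when PT library 1 and Pushen library 2 were both left out. For Tnfsf11 the ligand and the decoy Tnfrsf11b were called, whereas the signalling receptor Tnfrsf11a had 1.68, 1.72 and 1.01 FPKM in Pushen, 1.74, 1.38 and 1.34 in PT and 1.10, 1.33 and 1.10 in sham, with overlapping groups. For Tnfrsf25 and Tnfrsf4 the ligands Tnfsf15 and Tnfsf4 were at or near 0 reads. With no filter Tnfsf8 was called while its receptor Tnfrsf8 was not (log2 fold change 0.21 ± 0.26, edgeR adjusted p = 0.666). Tnfsf13b, Tnfsf9 and Tnfrsf9 were called in that fit, but not when PT library 1 and Pushen library 2 were also left out. Tnfrsf13b, Tnfrsf13c and Tnfrsf17 were not called in it, and neither were Tnfsf18 and Tnfrsf18.

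Many marker genes of immune cells and astrocytes were also higher in PT, and their part in the differences was not tested. Some markers passed the filter through their infarct level, such as Cd22, with a mean of 0.05 FPKM in sham. Of neutrophil markers 0 of 2 tested were called, and of dendritic cell markers 1 of 3. Markers of other cell types, such as fibroblasts (5 of 5 tested), were called higher as well and are given further below. The 8 microglia markers summed to between 119 and 176 FPKM in Pushen, 147 and 223 in PT and 56.2 and 76.1 in sham; 6 were called higher in PT, the smallest p being that of Tmem119 (log2 fold change 1.32 ± 0.15), and none was at 0. Monocyte and macrophage markers, whose sums are given above, rose in 5 of 5 tested; Mrc1 had the smallest p (2.84 ± 0.23), while Lyz2 had the largest log2 fold change (6.90 ± 0.65). The 7 T cell markers summed to between 3.69 and 6.85 FPKM in Pushen, 4.50 and 10.7 in PT and 0.67 and 1.07 in sham, where Cd3d was at 0. All 3 tested were called in PT, with the smallest p for Trac (3.42 ± 0.58). The sum of 10.7 was that of PT library 1 and came mostly from Cd4 and Lck. Cd3d, Cd3e, Cd3g, Cd8a and Trac were all lower there than in PT library 2 (Trac 1.18 against 1.90 FPKM, Cd3d 0.34 against 0.82). The 6 B cell markers summed to between 1.56 and 5.21 FPKM in Pushen, 4.51 and 5.35 in PT and 0.18 and 0.62 in sham, with both tested genes called and the smallest p for Cd22 (5.61 ± 0.66). Astrocyte markers summed to between 256 and 440 FPKM in Pushen, 314 and 609 in PT and 82.0 and 97.8 in sham, and 6 of 6 were called, with the smallest p for Gfap (4.39 ± 0.42).

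The comparison of Pushen with sham shares its sham libraries with the one above. In it 10 of the 19 tested members were called higher and 0 lower in edgeR's quasi-likelihood test, against 13.5% of all genes tested called higher, and 0 were lower at an unadjusted p under 0.05 in edgeR, DESeq2 or limma. Without a filter 14 of 38 were called higher (6.46% of all genes), and 19 of 38 when Pushen library 3 was also left out (7.7% of all genes). All 10 were also called in PT against sham. Of the 14 tested members whose sham mean also reached 0.5 FPKM, 8 were called. The other 2 calls were of members that passed the filter through their infarct level. The matching share of all genes is not given here. The log2 fold change was 3.57 ± 0.48 for Ltb (edgeR adjusted p = 0.00171), 2.73 ± 0.35 for Tnfrsf1b (0.00141), 2.20 ± 0.29 for Tnfrsf1a (0.00147) and 1.54 ± 0.26 for Tnfsf10 (0.00461). Ltbr (1.37 ± 0.28), Tnfsfm13 (1.24 ± 0.19) and Tnfsf12 (0.93 ± 0.19) were called as well, the last not without sham library 2 (edgeR adjusted p = 0.0529). Tnf had a log2 fold change of 5.46 ± 0.89 without a filter (edgeR adjusted p = 0.00448), and Lta 0.31 ± 0.40 (0.726).

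In Pushen against sham the calls of Tnfrsf13b (1.85 ± 0.50, edgeR adjusted p = 0.037), Tnfrsf11b (1.00 ± 0.28, 0.0415) and Tnfrsf19 (0.29 ± 0.08, 0.0367) rested on most libraries. Each was lost without any sham library or without Pushen library 1 or 2. Tnfrsf13b was also lost without PT library 2, Tnfrsf11b without PT library 3 and Tnfrsf19 without Pushen library 3. Over these fits the edgeR adjusted p reached 0.118 for Tnfrsf13b, 0.149 for Tnfrsf11b and 0.136 for Tnfrsf19. These calls were also lost with no filter (edgeR adjusted p = 0.0513 for Tnfrsf13b, 0.0661 for Tnfrsf11b and 0.106 for Tnfrsf19) and with a replicate block (0.0851, 0.0550 and 0.0867 for the same genes), and that of Tnfrsf11b in limma on log2(FPKM + 1) (adjusted p = 0.0612). Tnfrsf12a, Tnfrsf14 and Tnfrsf25 were called in PT against sham and not in Pushen against sham, with log2 fold changes of 0.47 ± 0.19, 1.37 ± 0.44 and 0.63 ± 0.39 (edgeR adjusted p = 0.133, 0.0665 and 0.304). For Tnfrsf14 this depended on 1 library and on the tool. Without Pushen library 3 the log2 fold change was 1.77 and the edgeR adjusted p 0.00148. With all libraries kept, DESeq2 called Tnfrsf14 higher in Pushen against sham (log2 fold change 1.38, adjusted p = 0.0197). For Tnfrsf25 the adjusted p was 0.0465 without PT library 3.

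The comparison of Pushen with PT asks whether the drug moved these genes. No member was called: 0 of 19 passed in edgeR's quasi-likelihood test, in DESeq2 or in limma, beside 0.0% of all 16740 genes in edgeR and 48 of them in DESeq2. At an unadjusted p under 0.05, 1 of 19 members passed in each of the 3 tools, Tnfrsf25, against 6.49% of all genes in edgeR. The median log2 fold change was -0.15 over the members, with 14 below 0 and 5 above, and -0.0081 over all genes, of which 51.7% were below 0. These values share the PT libraries with the comparison above. On the scaled counts, Pushen and PT libraries were fully apart, with Pushen lower, in 3 of 19 members (Tnfrsf25, Tnfrsf4 and Tnfrsf14), against 5.97% of genes tested, and with Pushen higher in 0 of 19, against 6.25%.

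The 5 members of smallest p were all lower in value in Pushen than in PT and none passed. Tnfrsf25 had a log2 fold change of -1.11 ± 0.39 (edgeR unadjusted p = 0.0192, adjusted p = 0.707), which was -0.42 without PT library 3. Tnfrsf4, a costimulatory receptor of activated T cells, had 0.54, 0.55 and 0.56 FPKM in Pushen, 1.14, 0.71 and 0.70 in PT and 0.75, 0.51 and 0.43 in sham, a log2 fold change of -0.62 ± 0.29 against PT (edgeR adjusted p = 0.707). Tnfsf12 (-0.40 ± 0.19), Tnfrsf19 (-0.15 ± 0.08) and Ltbr (-0.45 ± 0.27) had the same adjusted p of 0.707 in edgeR. For the Tnf receptors the values were -0.30 ± 0.27 for Tnfrsf1a and -0.49 ± 0.33 for Tnfrsf1b (edgeR adjusted p = 0.767 and 0.719), so differences of this size were not separable from the spread between libraries.

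Pushen library 3 was the lowest infarct library in 8 of the 13 members called higher in PT against sham (61.5%), close to its share among all 3202 genes called higher there (64.3%). PT library 1 was the highest in 6 of the 13 (46.2%), against 58.2% of those genes. Leaving Pushen library 3 out moved the log2 fold change against PT of Tnfrsf1b to -0.16, of Tnfrsf1a to -0.07, of Ltb to -0.06 and of Ltbr to -0.23. Among the infarct libraries, that library also had the lowest marker sums for the microglia, monocyte and macrophage, T cell and B cell lists. It was lowest as well for the other immune lists except regulatory T cells, and for astrocytes, fibroblasts, mural cells and ependyma. Neuronal markers were highest there, at 840 FPKM. Oligodendrocyte, progenitor and endothelial sums were not lowest there. The part of these cell types in the fold changes was not tested.

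**Figure D4:**
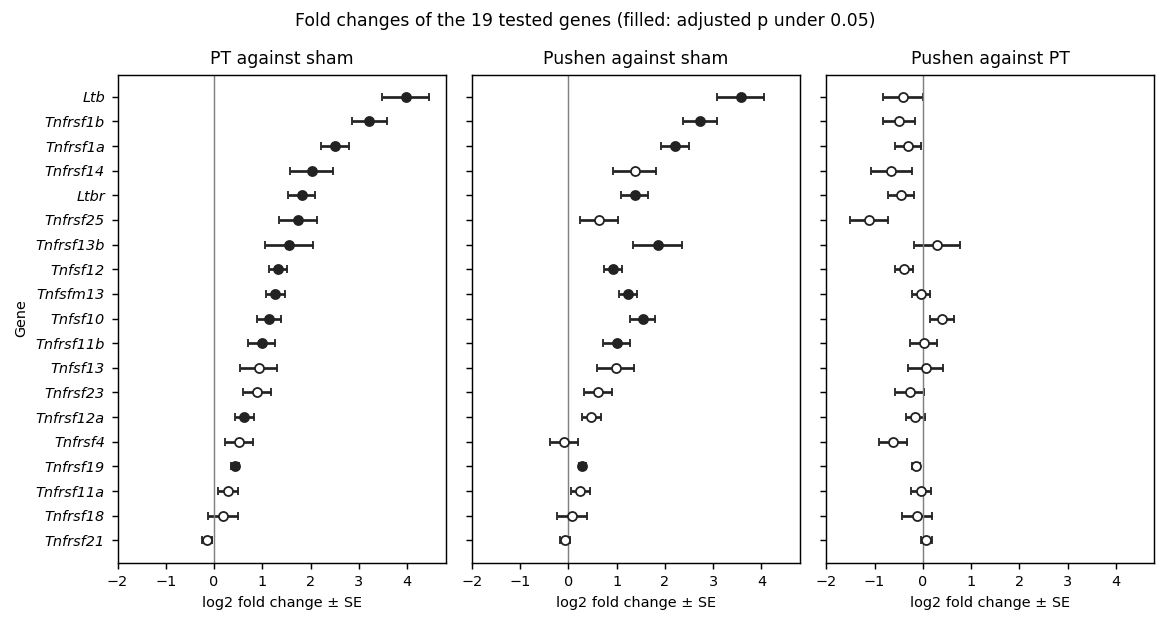
Log2 fold change with its standard error for the 19 tested genes in PT against sham, Pushen against sham and Pushen against PT, ordered by the first; filled points had an edgeR adjusted p under 0.05. The first panel has 13 filled points, the second 10 and the third 0, where values run between -1.11 and 0.40.

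Genes that act around the receptors were taken from 7 lists with 76 genes, of which 65 were tested. In PT against sham 35 were called higher and 4 lower, beside 19.1% and 11.8% of all genes, and in Pushen against sham 28 higher and 2 lower, beside 13.5% and 2.73%. Some of these genes passed the filter through their infarct level, such as Cxcl1. Without a filter 40 of 76 were called in PT against sham, 2 of them lower, beside 4892 of all 35527 genes, 1631 of them lower. In Pushen against sham 32 of 76 were called without a filter, 2 of them lower, beside 2608 of all genes, 313 of them lower. Against PT, Pushen had 0 called in edgeR, DESeq2 or limma; 5 of 65 had an unadjusted p under 0.05 in edgeR (7.69%), 7 in DESeq2 (10.8%) and 6 in limma (9.23%), beside 6.49%, 7.78% and 7.13% of all genes in these tools. Median log2 fold changes over the 65 were 0.65 in PT against sham, 0.53 in Pushen against sham and -0.10 in Pushen against PT. Without sham library 2 the Pushen against sham count was 19, both directions together.

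Of genes that Tnf is known to induce, 10 of 11 tested were higher in PT and 1 was lower. The chemokine genes Cxcl10 (2.19 ± 0.799 FPKM in Pushen, 2.09 ± 0.457 in PT and 0.0433 ± 0.00577 in sham), Cxcl1 (1.42 ± 0.850 FPKM in Pushen, 2.55 ± 0.779 in PT and 0.00667 ± 0.0115 in sham) and Ccl2 (2.96 ± 1.51 FPKM in Pushen, 3.17 ± 1.36 in PT and 0.0933 ± 0.0462 in sham) were among the 4 of smallest p. Their log2 fold changes in PT against sham were 5.19 ± 0.35, 7.97 ± 0.90 and 4.92 ± 0.56 (edgeR adjusted p = 0.000355, 0.000591 and 0.000611), of which that of Cxcl1 rests on a sham level near 0 and so depends on the prior count. Tnfaip8l2, an immune regulator, rose by 2.79 ± 0.30. Sod2, a mitochondrial superoxide dismutase, was the gene that fell, by 0.46 on the log2 scale (edgeR adjusted p = 0.00535). In Pushen against sham 9 were higher and Sod2 was lower.

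NF-kappaB genes were higher in 9 of 13 and lower in 1. Bcl3, a nuclear coactivator of the NF-kappaB subunits p50 and p52, had a log2 fold change of 4.90 ± 0.60 in PT against sham, Nfkb2, the subunit of the noncanonical route that Ltbr uses, 2.04 ± 0.25, the inhibitor gene Nfkbia 1.46 ± 0.22 and Rela 0.90 ± 0.13 (edgeR adjusted p between 0.000759 and 0.00161). Chuk, a kinase of that route, was lower by a value of -0.27 ± 0.09 (edgeR adjusted p = 0.0464). Of adaptors and kinases 7 of 14 were higher and 1 lower. Map3k14 (NIK), which starts the noncanonical route, rose by 1.35 ± 0.16, Ripk1, the kinase of the Tnfrsf1a complex, by 1.32 ± 0.20, Traf4 by 0.93 ± 0.16 and Tab2 by 0.53 ± 0.09, whereas Map3k5 (ASK1) fell by 0.52 on the log2 scale (edgeR adjusted p between 0.000745 and 0.00579).

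Of 12 ubiquitin-editing genes 2 were higher, a share near that of all genes, Birc3 (1.61 ± 0.26) and Tnip2 (0.58 ± 0.13), and 1 was lower, the caspase inhibitor Xiap (-0.41 ± 0.13), while Rnf31 of the linear ubiquitin complex had 0.26 ± 0.09 without passing (edgeR adjusted p between 0.00232 and 0.0646). Of 7 death genes 2 were higher, beside 19.1% of all genes tested. These were Casp8 (2.36 ± 0.29), an initiator caspase, and Mlkl (4.74 ± 0.75), the effector of necroptosis (edgeR adjusted p = 0.000772 and 0.00217). Mlkl averaged 0.0233 FPKM in sham, so the size of its fold change depends on the prior count. Ligand shedding genes were higher in 4 of 5: the sheddase Adam17 (0.79 ± 0.20) and its partners Rhbdf2 (2.31 ± 0.32), Rhbdf1 (0.81 ± 0.16) and Frmd8 (1.44 ± 0.18), with edgeR adjusted p between 0.000831 and 0.0186.

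Superfamily genes under other names included Fas, a death receptor, with 2.06 ± 0.617 FPKM in Pushen, 2.67 ± 0.890 in PT and 0.623 ± 0.0808 in sham, a log2 fold change of 2.02 ± 0.32 in PT against sham (edgeR adjusted p = 0.00206). Eda had 0.29 ± 0.15 and Relt -0.18 ± 0.09, and neither passed there, though Relt was lower in Pushen against sham at -0.37 ± 0.09 (edgeR adjusted p = 0.0259). Cd40lg, the ligand of Cd40, had 31 reads in Pushen, 32 in PT and 0 in sham over the 3 libraries of each group. Another 10 of the 76 genes missed the filter, among them Traf1 with 622 reads in Pushen, 867 in PT and 55 in sham.

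**Figure D5:**
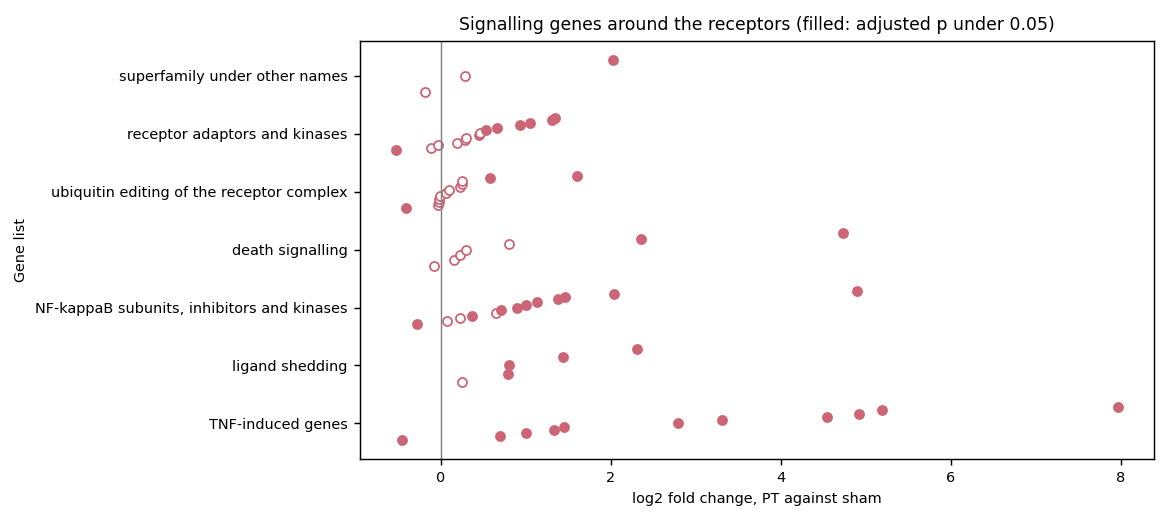
Log2 fold change in PT against sham of the 65 tested signalling genes, by list; filled points had an edgeR adjusted p under 0.05. The genes that Tnf induces reach 7.97, whereas most of the ubiquitin-editing genes lie near 0.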

How the data were processed

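Per the labels' protocols, a TruSeq RNA kit was used for the RNA-seq libraries. The submitters' processing notes name Bowtie 0.12.2 and build mm8. The table deposited by the authors holds unnormalised read counts of each gene, and FPKM, which the authors scaled to gene length and library size. The counter and strand setting are not stated in the sources used. Coordinates match GRCm38, since 94.2% of the 55141 genes also in GENCODE M21 sit at identical positions, as do 34 of the 39 members. Column names gave the library of all 18 value columns.

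Genes were tested where FPKM averaged 0.5 or more, 16740 in all. After TMM scaling of the counts, the 9 libraries were fitted together in edgeR 4.0.16 (R 4.3.3), with its quasi-likelihood test and Benjamini-Hochberg adjustment within each of 3 comparisons. An adjusted p under 0.05 was called. Standard errors (SE) were taken as log2 fold change over the root of F. The pipeline was tested on simulated data. A fold against a group with no read used a floor of 3 reads per library, which covers counting error only and takes each count as a separate read. Groups were described as apart on TMM-scaled CPM.

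Alternatives were other scalings and filters, DESeq2 1.42.0, limma 3.58.1 on log2(FPKM + 1) and log2(FPKM + 0.1), fits of 2 groups, a replicate block, and leaving out libraries; those that join no filter with an omitted library were chosen after seeing the data. The members, gene lists and tests were chosen with earlier results of these data known. Named with all values were members called in any comparison with a mean of 1 FPKM in the higher group, and Tnf, Lta, Ltb, Tnfrsf1a and Tnfrsf1b; the 5 members of smallest p in Pushen against PT; up to 4 genes of smallest p per signalling list; and 1 per marker list. Some genes that this rule names are not reported here. Other genes were named after their values were seen. Promoters came from RefSeq and figures from matplotlib 3.10.9. Protein sequences were not used here.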

Additional observations from a re-analysis of the deposited data

How the results depend on the processing

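No called fold change of a named member changed sign under any alternative. In PT against sham, 21 members were called with no filter, where 38 rather than 19 were tested, against 13 with it; 11 of the 13 were kept, Tnfrsf12a and Tnfrsf13b were lost and 10 were gained. With no filter the count was also 21 without Pushen library 3 and without PT library 3, with partly different members. With no filter and without both PT library 1 and Pushen library 2 it was 17, and 11 rather than 14 in Pushen against sham. Leaving out 1 library at a time gave 9 to 15 members for PT against sham, 0 for Pushen against PT and 6 to 11 for Pushen against sham, where 6 was the count without sham library 2; with no filter and without Pushen library 3 it was 19. For signalling genes the ranges were 33 to 39, 0 and 19 to 34, with 19 again without sham library 2. The causes were not tested. With the filter but without PT library 1 and Pushen library 2, those with most choroid plexus RNA, the 3 counts in the same order were 12, 0 and 7 members. Deviations from the group mean had correlations from -0.183 to 0.186 between libraries of the same number. Between libraries of different number they ran from -0.186 to 0.132. With 3 libraries a group, this cannot settle whether the numbers pair them. With a replicate block the counts in that order were 11, 0 and 7 members and 35, 0 and 25 signalling genes. Other scalings, DESeq2, limma and fits of 2 groups gave 13 to 14, 0 and 9 to 11 members; with PT and sham fitted alone, the 13 were 11 kept, with Tnfrsf12a and Tnfrsf13b lost and Tnfrsf23 and Tnfsf13 gained. Depth limits the members under the filter, whose sham values rest on a few reads.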

Other observations

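Markers of other cell types also differed between the groups. The 5 fibroblast markers summed to between 34.5 and 112 FPKM in Pushen, 73.3 and 126 in PT and 4.85 and 5.40 in sham, and Col3a1 had a log2 fold change of 5.24 ± 0.48 in PT against sham; here and below the gene named is the marker of smallest p, with the same comparison. The 5 plasma cell markers summed to between 19.0 and 32.6 FPKM in Pushen, 19.2 and 26.2 in PT and 10.2 and 11.1 in sham (Sdc1, 3.32 ± 0.40). The 5 NK cell markers summed to between 0.93 and 2.87 FPKM in Pushen, where Ncr1 was at 0, 1.64 and 2.99 in PT, and 0 and 0.05 in sham, where 4 were at 0 (Nkg7, 6.16 ± 0.87). The Nkg7 value rests on a sham level near 0, so its size depends on the prior count. Dendritic cell markers summed to between 4.75 and 8.78 FPKM in Pushen, 7.86 and 10.0 in PT and 3.21 and 3.62 in sham (Itgax, 8.51 ± 0.94, on a sham level near 0, so that its size depends on the prior count), while the other tested markers Flt3 (-0.29 ± 0.23) and Zbtb46 (-0.09 ± 0.12) were not called. Neutrophil markers summed to between 2.76 and 12.1 FPKM in Pushen, 7.97 and 12.3 in PT and 2.84 and 6.44 in sham (S100a8, 0.88 ± 0.44, not called). The 4 regulatory T cell markers summed to between 0.46 and 0.53 FPKM in Pushen, 0.56 and 0.68 in PT and 0.33 and 0.37 in sham.

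Among resident cells, oligodendrocyte markers summed to between 629 and 700 FPKM in Pushen, 464 and 890 in PT and 323 and 443 in sham (Cldn11, 1.29 ± 0.24), and progenitor markers to between 35.0 and 37.0 FPKM in Pushen, 30.5 and 46.5 in PT and 22.9 and 27.8 in sham (Pdgfra, 0.69 ± 0.12). Endothelial markers summed to between 53.4 and 55.5 FPKM in Pushen, 51.4 and 68.5 in PT and 39.8 and 40.7 in sham (Cdh5, 1.00 ± 0.14), mural cell markers to between 40.4 and 58.1 FPKM in Pushen, 48.3 and 62.5 in PT and 32.2 and 35.8 in sham (Acta2, 1.40 ± 0.20), and ependymal markers to between 10.9 and 21.3 FPKM in Pushen, 11.0 and 28.8 in PT and 1.97 and 4.35 in sham (Rarres2, 2.37 ± 0.30). Among neurons Snap25 had -0.75 ± 0.15. Adora2a of striatal neurons had 2.73, 2.54 and 1.28 FPKM in Pushen, 27.67, 3.81 and 1.05 in PT and 0.52, 0.59 and 0.84 in sham, a log2 fold change of 3.99 ± 1.04 (edgeR adjusted p = 0.0195) that was 1.84 ± 0.53 without PT library 1 (0.0415). Clic6 of the choroid plexus had 2.25, 5.90 and 1.44 FPKM in Pushen, 5.76, 1.17 and 2.98 in PT and 0.35, 0.78 and 0.98 in sham, a log2 fold change of 2.18 ± 0.69 (edgeR adjusted p = 0.0407) that was 1.51 ± 0.67 and not called without PT library 1 (0.147).

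The low counts of the deposited table are uneven. In sham library 1, 1732 genes had a count of 4, against 608 with a count of 3 and 320 with a count of 5, and 716 had a count of 8 against 305 with a count of 7. The same excess at 4 was present in all 9 libraries. The single sham libraries with reads of Tnf, Tnfrsf26 and Tnfsf18 each had a count of 4, so these sham values sit on that excess. The floor of 3 reads used for Tnfsf8, Tnfsf11 and Tnfsf14 lies below that count.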
